A study of Mus musculus with 9 samples.

Results

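The S phase and mitosis genes are 40 genes of DNA synthesis, chromosome segregation and cell division, taken by symbol from a count table of 52459 gene symbols. All 40 were found in the table, and 36 of them had enough counts to be tested. RNA sequencing was done on islets of Langerhans, the endocrine part of the pancreas, of mice aged 12 weeks. The 3 groups were wild type (WT, +/+), heterozygous (db/+) and homozygous (db/db) for the db allele of Lepr, the leptin receptor gene, with 3 libraries each. All 9 libraries carry the same strain label. The sex of the mice and any pooling are not stated in the labels. Nor do they say that libraries are separate animals, so a p-value here measures spread between libraries that may be technical. The db allele is inherited and present in all cells, and mice homozygous for it become obese and diabetic.

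A dividing cell copies its DNA in S phase and shares the copies out in mitosis. E2F factors switch on genes of licensing and nucleotide supply as cells enter S phase, and a later wave of genes, driven through Mybl2 and Foxm1, builds the spindle, the kinetochores and the machinery that splits the cell. Adult islet beta cells divide rarely, and in rodents they are known to divide more often under obesity and insulin resistance. In whole islet RNA these genes report on every cell type present. More cells of a type and more RNA per cell cannot be told apart in such samples.

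Promoter sequence is shown first because the members fall into the early and late waves named above, which are known for different promoter elements. RefSeq promoter windows of GRCm38.p6, the assembly of mm10, were at hand for 34 of the 40 members, 36 windows in all because Mcm7 and Prc1 have 2 starts each. Each window held 250 bases before and 50 bases after the annotated start. The letters searched were the CCAAT box, the CHR element of late cell cycle genes, spelled TTTGAA or as the palindrome TTTAAA, and the E2F element, spelled TTTCCCGC, TTTGGCGC, TTTCGCGC or TTTGCCGC. Both strands were searched, so a reverse complement counts as a match. Matches to one set may overlap each other, as with the E2F letters of Mcm6. The 6 stretches below are the 150 bases before the start on the gene's strand, 5′ to 3′, with matches in capitals. Cdk1, Ube2c, Kif11 and Cdc20 stand for the late genes, Mcm6 for the early ones, and Pcna is the member that fell in db/db. Each late example holds CHR letters in these bases and Mcm6 holds E2F letters, which many other members of the same waves do not.
Cdk1 (chr10:69352913-69353062, minus strand): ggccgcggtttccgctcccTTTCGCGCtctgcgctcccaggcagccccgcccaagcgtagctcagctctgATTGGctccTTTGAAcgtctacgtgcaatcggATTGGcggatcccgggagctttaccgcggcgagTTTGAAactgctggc
Ube2c (chr2:164769779-164769928, plus strand): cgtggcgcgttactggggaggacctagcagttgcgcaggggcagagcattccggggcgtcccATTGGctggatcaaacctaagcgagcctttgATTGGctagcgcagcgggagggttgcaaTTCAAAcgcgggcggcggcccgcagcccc
Kif11 (chr19:37376232-37376381, plus strand): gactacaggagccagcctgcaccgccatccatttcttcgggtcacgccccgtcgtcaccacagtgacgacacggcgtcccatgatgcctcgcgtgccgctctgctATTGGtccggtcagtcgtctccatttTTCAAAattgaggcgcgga
Cdc20 (chr4:118437344-118437493, minus strand): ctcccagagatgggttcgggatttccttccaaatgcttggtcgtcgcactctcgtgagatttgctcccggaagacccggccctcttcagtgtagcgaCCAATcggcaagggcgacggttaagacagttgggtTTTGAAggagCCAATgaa
Mcm6 (chr1:128359706-128359855, minus strand): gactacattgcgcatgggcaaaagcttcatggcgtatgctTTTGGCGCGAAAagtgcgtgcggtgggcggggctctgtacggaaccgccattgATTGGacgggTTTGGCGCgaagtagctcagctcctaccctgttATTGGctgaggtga
Pcna (chr2:132253181-132253330, minus strand): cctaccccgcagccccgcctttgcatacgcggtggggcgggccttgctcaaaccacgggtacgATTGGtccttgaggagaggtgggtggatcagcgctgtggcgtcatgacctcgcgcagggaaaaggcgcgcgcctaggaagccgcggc

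A CCAAT box was found in the windows of 26 of the 34 members, against 37.4% of all 32817 promoter windows. CHR letters were found in 23 of 34, against 27.6% of all windows. Of the 16 mitosis members with a window (checkpoint, mitotic kinases and Birc5, centromere, spindle and anaphase-promoting complex genes), 13 held CHR letters and none held E2F letters. Of the 10 members of licensing, clamp and nucleotide supply, 4 held CHR letters and 4 held E2F letters (Mcm3, Mcm5, Mcm6 and Mcm7). E2F letters stood in 2.26% of all windows, and the only other member with them was Cdk1. With the 50 bases after the start left out, CHR letters were found in 17 of 34 members, against 25.2% of all windows, and in 8 of the 16 mitosis members. E2F letters were then found in 4 of 34 (Cdk1, Mcm5, Mcm6 and Mcm7), against 1.86% of all windows. Among promoter windows of tested genes only, the whole-window shares were 37.1% for CCAAT, 19.4% for CHR and 3.67% for E2F. A match is a description of letters and not a bound site.

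**Figure D1:**
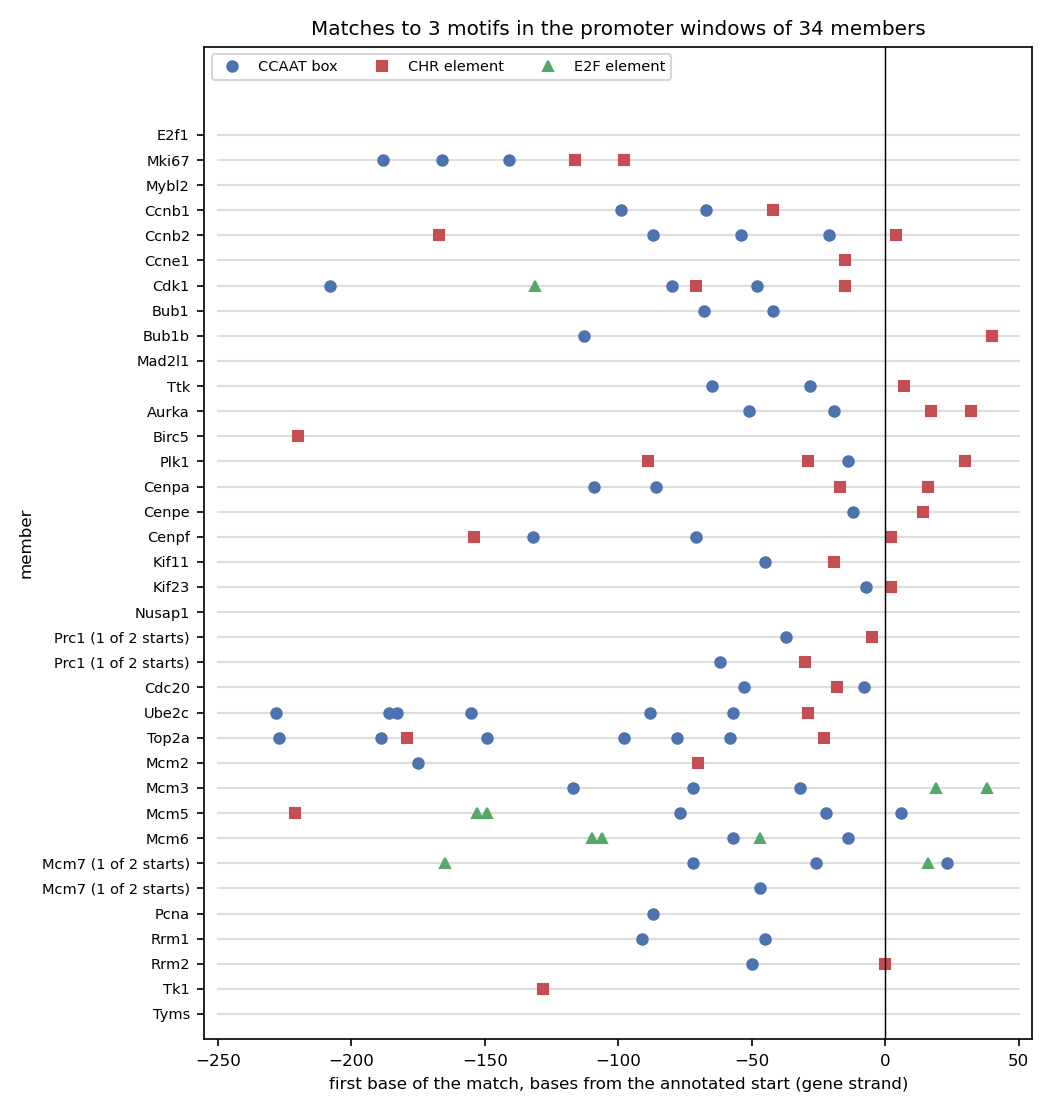
Matches to the CCAAT box (circles), the CHR element (squares) and the E2F element (triangles) in the promoter windows of the 34 members with one, with the position of the first base of each match in bases from the annotated start on the x axis. The 5 members with a triangle are Cdk1, Mcm3, Mcm5, Mcm6 and Mcm7, and squares sit mostly on the mitosis members.

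Libraries held 8860024 to 11734886 counts. CPM stands for counts scaled by the TMM-normalised library size, and 3 counts come to 0.238 to 0.412 CPM. Most members were low, which limits the precision of their values. All 10 endocrine markers, insulin genes included, had at least 4848 counts in each library. The difference in Lepr itself did not pass the test (db/db against WT 1.0 ± 0.65 on the log2 scale, adjusted p = 0.245), and gene counts do not check an allele that changes splicing. WT 1, WT 3 and db/db 1 held counts of both Xist and Y-linked genes, WT 2 and all db/+ libraries held Y-linked counts with Xist at or under 0.722 CPM, and in db/db 2 and db/db 3 Xist was present while Y-linked levels were 1.11 and 0.108 CPM. Gm42418 and Lars2, which are known to take up ribosomal RNA reads, summed to 19887, 25167 and 18361 CPM in WT, to 224, 207 and 211 in db/+ and to 217300, 152230 and 554 in db/db. Both splits touch the groups unevenly. Xist stood at 308, 948 and 858 CPM in db/db and at or under 0.506 CPM in db/+. Every db/db library was above every db/+ library in Xist and in the Gm42418 and Lars2 sum. Neither can be told apart from genotype in that comparison. Runs without these libraries are described further on.

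Most tested S phase and mitosis genes were higher in db/db islets than in either other group. Of the 36 tested members, 22 rose and 1, Pcna, fell in db/db against WT, where 21.8% of all 16826 tested genes rose and 19.9% fell. Against db/+, 24 members rose and Pcna fell, where 20.6% of all tested genes rose and 19.7% fell. The median log2 fold change over the 36 was 1.04 against WT, with a range from -0.50 to 2.20, and 0.96 against db/+, with a range from -0.48 to 2.31. All tested genes had medians of 0.006 and 0.013. In 28 members every db/db library lay above every WT library, which held for 26.2% of all tested genes, and in 23 every db/db library lay above every db/+ library, which also held for 26.2%. The db/db libraries are the same in both comparisons, so the results are given side by side and are not independent. A total of 5 tested members (Aurkb, Plk1, Tk1, Ube2c and Ccnb2) passed the low-count filter only with the db/db libraries, so they had to be high there, and the counts over 36 are not counts over all 40.

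**Figure D2:**
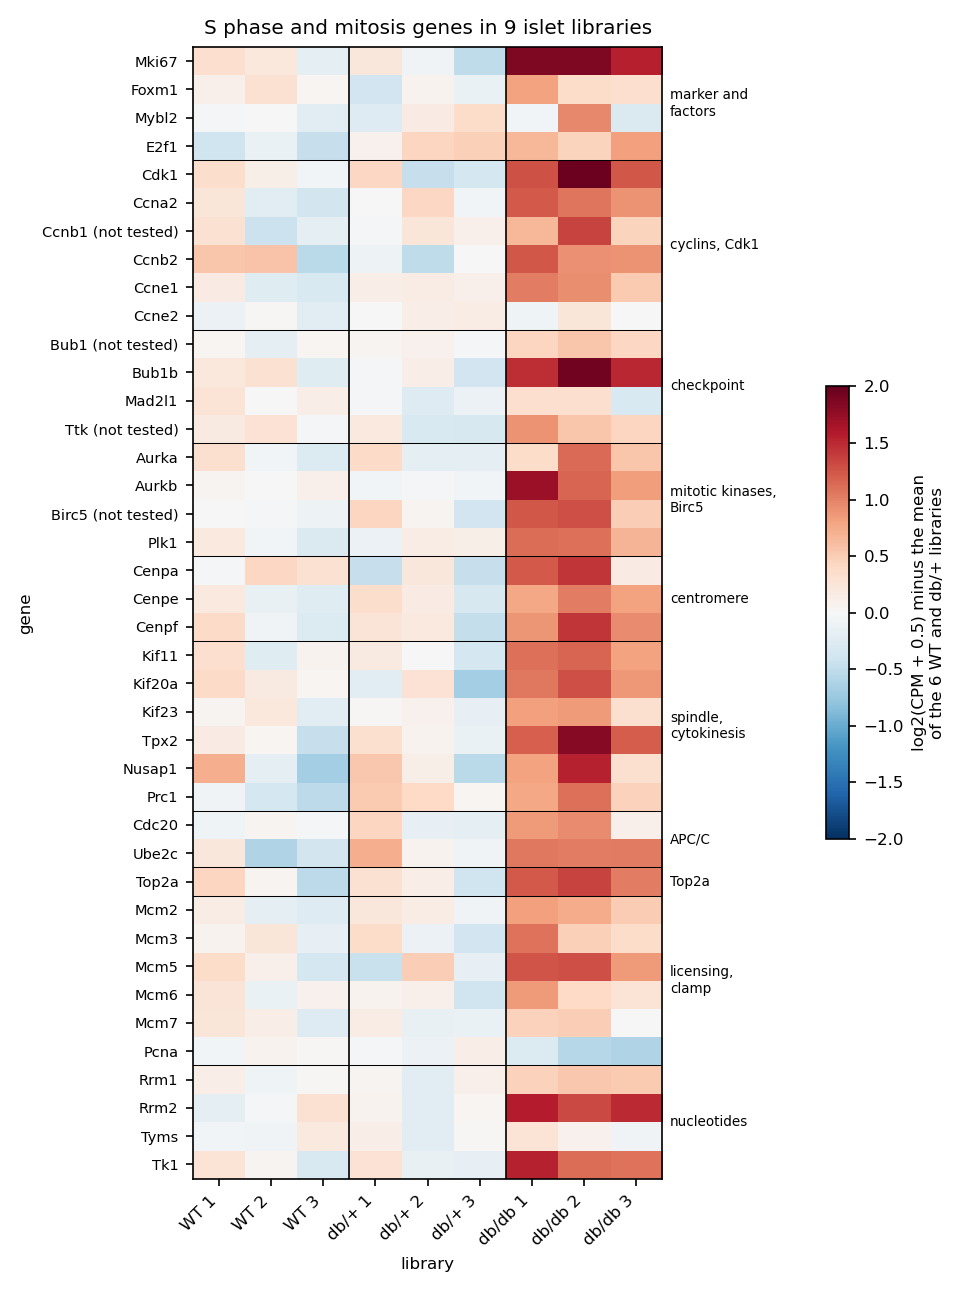
Each row is a member in its role group and each column a library; colour gives log2(CPM + 0.5) minus the mean of the 6 WT and db/+ libraries. The 3 db/db columns are red in most rows, Pcna is blue in them, and Ccne2, Mad2l1 and Tyms are close to white in all 9.

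Mki67, which encodes the Ki-67 protein that coats mitotic chromosomes and is the usual marker of cycling cells (chr7:135689784-135716450), stood at 16.3, 14.9 and 11.2 CPM in WT, at 15.2, 12.2 and 8.89 in db/+ and at 48, 48.1 and 38.9 in db/db. Every db/db library was more than 2-fold above any other. The rise was 3.17-fold against WT, a log2 fold change of 1.66 ± 0.18 (SE; edgeR adjusted p = 2.40e-05), and 1.89 ± 0.18 against db/+ (adjusted p = 9.71e-06). E2f1, an activator of the genes of S phase entry, stood at 5.4, 6.59 and 5.18 CPM in WT, at 7.76, 10.04 and 10.3 in db/+ and at 11.8, 10.2 and 13.3 in db/db. Here the db/+ libraries lay above WT too, and 1 db/db library lay within the db/+ range. E2f1 rose by 1.04 ± 0.18 on the log2 scale against WT (adjusted p = 0.000396), while the difference from db/+ was 0.33 ± 0.17 (adjusted p = 0.135, 95% interval -0.08 to 0.74). Foxm1, the factor of the G2 and mitosis wave, was low, at 2.7, 3.16 and 2.54 CPM in WT, at 1.78, 2.62 and 2.2 in db/+ and at 4.67, 3.34 and 3.23 in db/db. Its lowest db/db library stood only just above the highest WT library. The log2 fold change was 0.41 ± 0.26 against WT (adjusted p = 0.226) and 0.76 ± 0.27 against db/+ (adjusted p = 0.0346), and that call was lost without db/+ 1, db/+ 3 or db/db 1. Mybl2, which works with the MuvB complex at late promoters, was at or below 1.63 CPM in all libraries but db/db 2, at 2.73 CPM, and passed neither test.

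Among the cyclins and Cdk1, 3 of 5 tested genes rose against WT and 4 of 5 against db/+, beside 21.8% and 20.6% of all tested genes. Ccnb2, 1 of the 4, passed the low-count filter only with the db/db libraries. Cdk1, the kinase that drives entry into mitosis (chr10:69335146-69352912), stood at 2.3, 1.9 and 1.63 CPM in WT, at 2.43, 1.1 and 1.22 in db/+ and at 4.8, 8.05 and 4.74 in db/db. All 3 db/db libraries were above the other 6, with db/db 2 the highest. Cdk1 rose by 1.58 ± 0.33 on the log2 scale against WT (adjusted p = 0.00187) and by 1.88 ± 0.34 against db/+ (adjusted p = 0.000625). Ccna2, cyclin A2 of S phase and G2, stood at 4.28, 2.98 and 2.64 CPM in WT, at 3.56, 4.89 and 3.43 in db/+ and at 9.06, 8.05 and 7.11 in db/db. The db/db libraries lay above all others, while WT and db/+ overlapped. The log2 rise was 1.27 ± 0.24 against WT (adjusted p = 0.000764) and 1.02 ± 0.23 against db/+ (adjusted p = 0.00314). Ccna2 shares 863 bases with Exosc9, which had 2412 counts over the 9 libraries against 454 for Ccna2, so some counts may be shared.

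Ccnb1, a mitotic cyclin that activates Cdk1, stood at 0.635, 0.181 and 0.305 CPM in WT, at 0.404, 0.591 and 0.489 in db/+ and at 0.961, 1.86 and 0.754 in db/db, which was too low to be tested. Its db/db libraries lay above the others, but most values were within a few counts of the 3-count limit. Fitted with no low-count filter, its log2 fold change was 1.56 ± 0.59 against WT (adjusted p = 0.0370) and 1.21 ± 0.56 against db/+ (adjusted p = 0.108). Ccnb2, the other B-type cyclin, had group means of 1.09 ± 0.595, 0.655 ± 0.207 and 2.18 ± 0.374 CPM (SD, n = 3) in WT, db/+ and db/db, and its log2 fold change was 0.95 ± 0.42 against WT (adjusted p = 0.0858) and 1.70 ± 0.45 against db/+ (adjusted p = 0.00805). Of the E-type cyclins of S phase entry, Ccne1 rose by 1.07 ± 0.25 against WT (adjusted p = 0.00356) and 0.79 ± 0.24 against db/+ (adjusted p = 0.0178), and that second call was lost without db/+ 3, db/db 1 or db/db 2. Ccne2 gave 0.16 ± 0.14 against WT (95% interval -0.18 to 0.50) and -0.04 ± 0.14 against db/+ (-0.38 to 0.29), which passed neither test. Ccne2 overlaps Ints8 over 5622 bases, and Ints8 had 6315 counts against 1157. How much of the Ccne2 count comes from Ints8 was not tested. Whether Ccne1 and Ccne2 differ in response was not tested.

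Bub1b, which encodes the BubR1 protein that holds back anaphase until chromosomes are attached (chr2:118598202-118641592), stood at 1.98, 2.17 and 1.32 CPM in WT, at 1.62, 1.86 and 1.14 in db/+ and at 5.49, 7.68 and 5.6 in db/db. Its lowest db/db library was more than 2-fold above the highest of the others. Bub1b rose 3.39-fold, or 1.76 ± 0.28 on the log2 scale, against WT (adjusted p = 0.000234) and by 2.02 ± 0.28 against db/+ (adjusted p = 8.67e-05). Mad2l1, another spindle checkpoint gene, was not called, with group means of 4.27 ± 0.484, 3.45 ± 0.303 and 4.3 ± 1.11 CPM in WT, db/+ and db/db. Against WT its log2 fold change was 0.00 ± 0.24, with a 95% interval of -0.58 to 0.58. The checkpoint kinases Bub1 and Ttk were too low to be tested. Bub1 ranged from 0.542 to 0.759 CPM in WT and db/+ and from 1.08 to 1.24 CPM in db/db, without overlap, and Ttk from 0.245 to 0.632 CPM and from 0.754 to 1.24 CPM. With no low-count filter neither gene passed against WT (Bub1 0.74 ± 0.53, adjusted p = 0.352; Ttk 0.76 ± 0.59, adjusted p = 0.416).

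Of the 3 tested mitotic kinases, Aurkb and Plk1 rose in both comparisons, but both entered the test only through the db/db libraries, so this count supports nothing about the group. Aurkb, the kinase of the chromosomal passenger complex that corrects faulty kinetochore attachments, stood at 0.476, 0.451 and 0.508 CPM in WT, at 0.404, 0.422 and 0.408 in db/+ and at 2.61, 1.61 and 1.19 in db/db. The 6 WT and db/+ libraries had 5 or 6 counts each, and the db/db libraries had 19, 13 and 11. Aurkb rose by 1.87 ± 0.42 on the log2 scale against WT (adjusted p = 0.00288) and 2.08 ± 0.42 against db/+ (adjusted p = 0.00154). Plk1, a kinase of mitotic entry and spindle assembly, rose by 1.57 ± 0.43 against WT (adjusted p = 0.0092) and 1.44 ± 0.41 against db/+ (adjusted p = 0.0134), from group means of 0.464 ± 0.165 and 0.522 ± 0.102 CPM in WT and db/+ to 1.44 ± 0.319 in db/db. The db/+ call was lost without db/+ 1 (adjusted p = 0.0577). Aurka, the kinase of the spindle poles, gave 0.84 ± 0.34 against WT (adjusted p = 0.0606) and 0.83 ± 0.33 against db/+ (adjusted p = 0.0616), just short of the threshold. Birc5, which encodes survivin, a partner of Aurkb, was too low to be tested, at 0.245 to 0.808 CPM in WT and db/+ and 1.78, 1.86 and 0.862 CPM in db/db. With no low-count filter Birc5 passed in both comparisons (1.66 ± 0.55 against WT, adjusted p = 0.0131, and 1.46 ± 0.53 against db/+, adjusted p = 0.0271).

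The centromere genes rose in 2 of 3 cases against WT and in 3 of 3 against db/+, beside 21.8% and 20.6% of all tested genes. Cenpf, a large protein of the outer kinetochore, stood at 8.01, 5.69 and 4.88 CPM in WT, at 7.28, 6.92 and 4.16 in db/+ and at 11.5, 17.1 and 12.1 in db/db. The db/db libraries lay above all others, with db/db 2 the highest, while WT and db/+ overlapped. The log2 rise was 1.12 ± 0.25 against WT (adjusted p = 0.00281) and 1.15 ± 0.24 against db/+ (adjusted p = 0.00244). Cenpe, the kinetochore motor that lines up chromosomes, rose by 1.06 ± 0.27 (adjusted p = 0.00686) and 0.89 ± 0.27 (adjusted p = 0.0163), and the call against db/+ was lost without db/+ 3 or db/db 2. Cenpa, the histone H3 variant that marks centromeres, overlapped with db/db 3 at 1.51 CPM, and its log2 fold change was 0.95 ± 0.41 against WT (adjusted p = 0.0739) and 1.54 ± 0.42 against db/+ (adjusted p = 0.00987). The Cenpa call was lost without db/db 2 (adjusted p = 0.0520).

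Spindle and cytokinesis genes rose in 5 of 6 cases against WT and 4 of 6 against db/+, beside 21.8% and 20.6% of all tested genes. Tpx2, a spindle assembly factor that activates Aurora A, stood at 1.82, 1.63 and 1.02 CPM in WT, at 2.1, 1.69 and 1.39 in db/+ and at 4.25, 6.81 and 4.31 in db/db. All db/db libraries stood at least 2-fold above the highest of the others. Tpx2 rose by 1.76 ± 0.31 on the log2 scale against WT (adjusted p = 0.000531) and 1.56 ± 0.30 against db/+ (adjusted p = 0.00114). Kif11, the motor that pushes the spindle poles apart, rose by 1.05 ± 0.24 against WT (adjusted p = 0.00345) and 1.18 ± 0.24 against db/+ (adjusted p = 0.00161). Of the central spindle genes, Prc1, which bundles its microtubules, rose by 1.19 ± 0.23 against WT (adjusted p = 0.00105) but differed from db/+ by 0.50 ± 0.22 (adjusted p = 0.0877). The motors Kif20a and Kif23 of the same structure rose by 0.97 and 0.77 against WT and by 1.42 and 0.82 against db/+. The Kif23 call (adjusted p = 0.0413 and 0.0312) was lost when any of 7 libraries was left out against WT and any of 5 against db/+. That of Kif20a against WT (adjusted p = 0.0163) was lost without WT 3 or db/db 2. Nusap1, a microtubule-binding protein of the spindle, varied within groups, from 0.610 to 2.46 CPM in WT alone, and gave 1.07 ± 0.53 (adjusted p = 0.124) and 1.07 ± 0.52 (adjusted p = 0.126). Prc1 overlaps Rccd1 over 21669 bases, with 961 counts of Rccd1 against 564 of Prc1. Kif20a overlaps Cdc23 over 4930 bases, with 6430 counts against 293.

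Ube2c, the ubiquitin-conjugating enzyme of the anaphase-promoting complex, stood at 0.714, 0.181 and 0.305 CPM in WT, at 1.21, 0.591 and 0.489 in db/+ and at 1.65, 1.61 and 1.62 in db/db. The db/db libraries were alike and above the rest, while WT and db/+ spread over several fold at 2 to 15 counts each. Ube2c passed the low-count filter only with the db/db libraries. The log2 fold change was 1.95 ± 0.51 against WT (adjusted p = 0.00745) and 1.07 ± 0.46 against db/+ (adjusted p = 0.0776). Cdc20, the activator of the same complex, passed neither test (0.87 ± 0.36, adjusted p = 0.0675; 0.76 ± 0.36, adjusted p = 0.102). Top2a, topoisomerase II alpha, which untangles sister DNA before anaphase (chr11:98992947-99024199), stood at 13.3, 10.1 and 6.6 CPM in WT, at 12.1, 10.6 and 7.26 in db/+ and at 23.5, 25.6 and 20.3 in db/db. All db/db libraries lay above all others. Top2a rose 2.29-fold against WT (1.19 ± 0.24 on the log2 scale, adjusted p = 0.00215) and 2.31-fold against db/+ (1.21 ± 0.24, adjusted p = 0.00208).

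The genes of replication licensing and the replication clamp were mixed, with 2 of 6 higher and 1 lower against WT, which is near the 21.8% and 19.9% of all tested genes, and 4 higher and 1 lower against db/+, beside 20.6% and 19.7%. Mcm2 to Mcm7 form the ring helicase that is loaded on origins before S phase. Mcm2 stood at 13.6, 10.7 and 10.2 CPM in WT, at 14.4, 13.7 and 11.6 in db/+ and at 22, 20.8 and 17.6 in db/db. The db/db libraries lay above all others, while WT and db/+ overlapped. The rise was 1.74-fold against WT (0.80 ± 0.15 on the log2 scale, adjusted p = 0.000729) and 1.52-fold against db/+ (0.60 ± 0.15, adjusted p = 0.00488). Mcm5 rose by 1.16 ± 0.29 (adjusted p = 0.00585) and 1.23 ± 0.29 (adjusted p = 0.00414). Other ring subunits among the members passed against db/+ or not at all. Mcm3 gave 0.69 (adjusted p = 0.0698) and 0.77 (adjusted p = 0.0468), a call lost when any of 7 libraries was left out. Mcm6 gave 0.45 (adjusted p = 0.0611) and 0.59 (adjusted p = 0.0195), a call lost without db/+ 3 or db/db 1. Mcm7 gave 0.28 and 0.39, with adjusted p = 0.27 and 0.129. Mcm4, a ring subunit that is not a member, gave -0.06 and -0.26, with adjusted p = 0.801 and 0.271. Its db/db libraries overlapped with WT and lay below all db/+ libraries, which held for 26% of all tested genes.

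Pcna, the sliding clamp that holds DNA polymerase on its template (chr2:132249286-132253180), moved the other way. Pcna stood at 27.9, 30.5 and 29.8 CPM in WT, at 28.2, 26.9 and 31.9 in db/+ and at 24, 19.4 and 19.1 in db/db. Every db/db library lay below every WT and db/+ library, and db/db 1 was the nearest to them. Against WT, where 25.3% of all tested genes had db/db libraries wholly below, Pcna gave -0.50 ± 0.11 on the log2 scale (adjusted p = 0.00315), and against db/+, where this held for 26% of them, -0.48 ± 0.11 (adjusted p = 0.00412). Its pseudogene Pcna-ps2 had a row of its own with 642 counts over the 9 libraries against 2551 for Pcna. Pcna-ps2 stood at 4.29, 6.5 and 5.69 CPM in WT, at 9.54, 6.075 and 6.77 in db/+ and at 5.90, 8.30 and 8.30 in db/db. Its log2 fold change was 0.46 ± 0.23 against WT (adjusted p = 0.126) and 0.01 ± 0.22 against db/+ (adjusted p = 0.974). With both rows summed, which was chosen after seeing the data, the fall was smaller and still passed (-0.30 ± 0.10 against WT, adjusted p = 0.0245, and -0.37 ± 0.10 against db/+, adjusted p = 0.00872). The Pcna call did not hold with the Y-linked level as a covariate, nor against db/+ with the title letter as one.

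Genes of nucleotide supply rose in 3 of 4 cases in both comparisons, Tk1 among them, beside 21.8% and 20.6% of all tested genes. Rrm2, the ribonucleotide reductase subunit that is made anew in S phase (chr12:24708254-24714146), stood at 1.82, 2.08 and 2.74 CPM in WT, at 2.26, 1.77 and 2.2 in db/+ and at 7.27, 6.07 and 6.9 in db/db. The db/db libraries lay close together, more than 2-fold above any other. Rrm2 rose 3.06-fold against WT (1.61 ± 0.24 on the log2 scale, adjusted p = 0.000129) and 3.23-fold against db/+ (1.69 ± 0.24, adjusted p = 8.66e-05). Its longer-lived partner Rrm1 rose by 0.49 ± 0.11 (adjusted p = 0.00335) and 0.53 ± 0.11 (adjusted p = 0.00186), from 21.3 ± 1.62 CPM in WT and 20.6 ± 2.56 in db/+ to 29.9 ± 0.933 in db/db. Tk1, thymidine kinase of the salvage route, entered the test only through the db/db libraries and gave 2.20 ± 0.53 (adjusted p = 0.00471) and 2.31 ± 0.53 (adjusted p = 0.00357). It rests on few reads: 5, 3 and 1 counts in WT, with 5, 2 and 2 in db/+ and with 12, 9 and 10 in db/db. Tk1 overlaps Afmid over 585 bases, with 111 counts of Afmid against 49 of Tk1, so some counts may be shared. Tyms, thymidylate synthase of the de novo route, had means of 5.92 ± 0.678, 5.72 ± 0.759 and 6.27 ± 0.823 CPM in WT, db/+ and db/db. The 95% interval of its log2 fold change was -0.39 to 0.55 against WT and -0.34 to 0.59 against db/+.

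**Figure D3:**
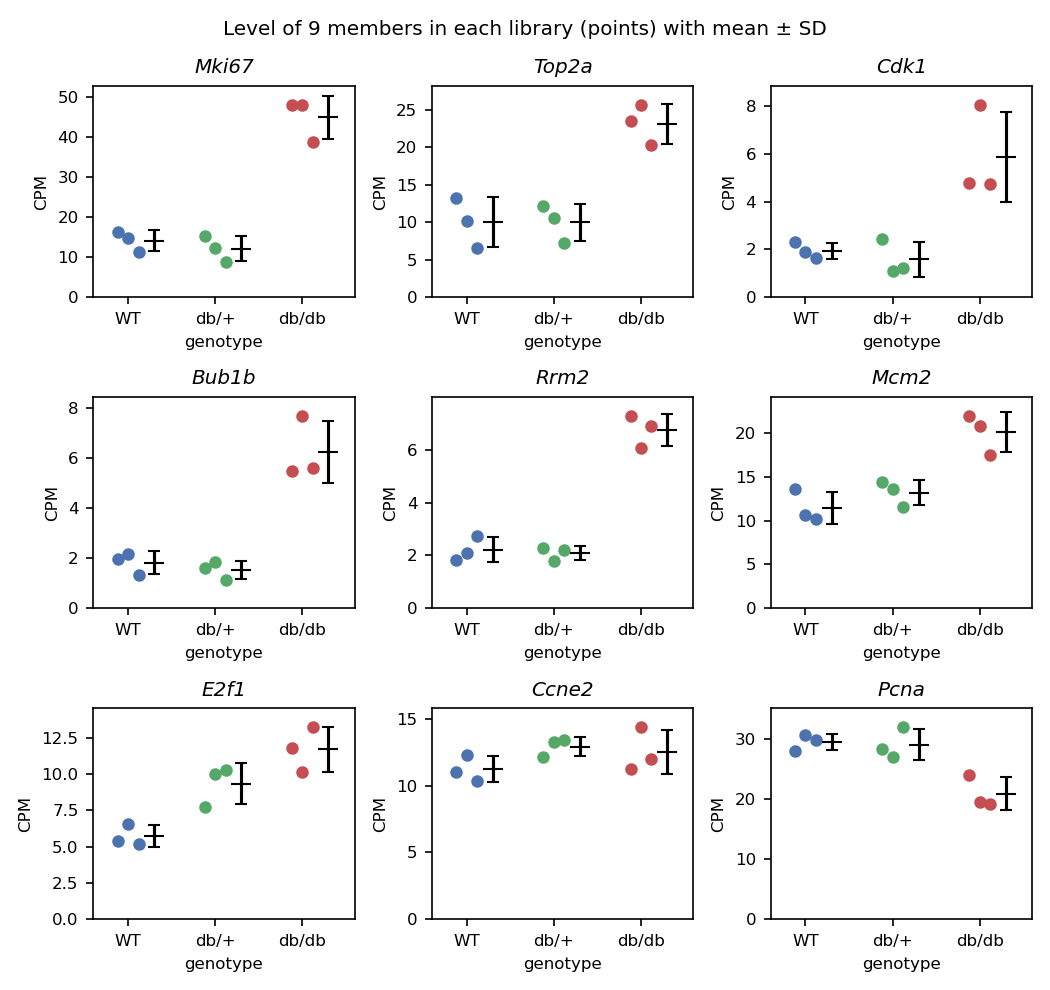
Level of 9 members in each library in CPM by genotype, with every library as a point and the mean ± SD (n = 3) as a bar beside it. The db/db points of Mki67, Top2a, Cdk1, Bub1b, Rrm2 and Mcm2 lie above all others, E2f1 is higher in db/+ and db/db than in WT, Ccne2 overlaps between groups, and the db/db points of Pcna lie below all others.

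The 10 licensing, clamp and nucleotide genes had a median log2 fold change of 0.59 against WT, with 5 higher and 1 lower, and 0.60 against db/+, with 7 higher and 1 lower. The 16 tested genes of mitosis had medians of 1.06 and 1.11, with 11 and 10 higher and none lower. The difference between these sets was not tested. Of all tested genes, 41.7% and 40.3% were called in 1 direction or the other in the respective comparison. Aurkb, Plk1 and Ube2c in the mitosis set, and Tk1 in the other, passed the low-count filter only with the db/db libraries. The counts and medians of both sets include them, so no excess over all genes is read from these counts. A total of 19 members rose in both comparisons. E2f1, Prc1 and Ube2c passed against WT and not against db/+, and Foxm1, Ccnb2, Cenpa, Mcm3 and Mcm6 passed against db/+ and not against WT. By edgeR's test with the low-count filter, none of these 8 was called in db/+ against WT, which tests the gap between the pair of results. Mybl2, Ccne2, Mad2l1, Aurka, Nusap1, Cdc20, Mcm7 and Tyms passed neither test.

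**Figure D4:**
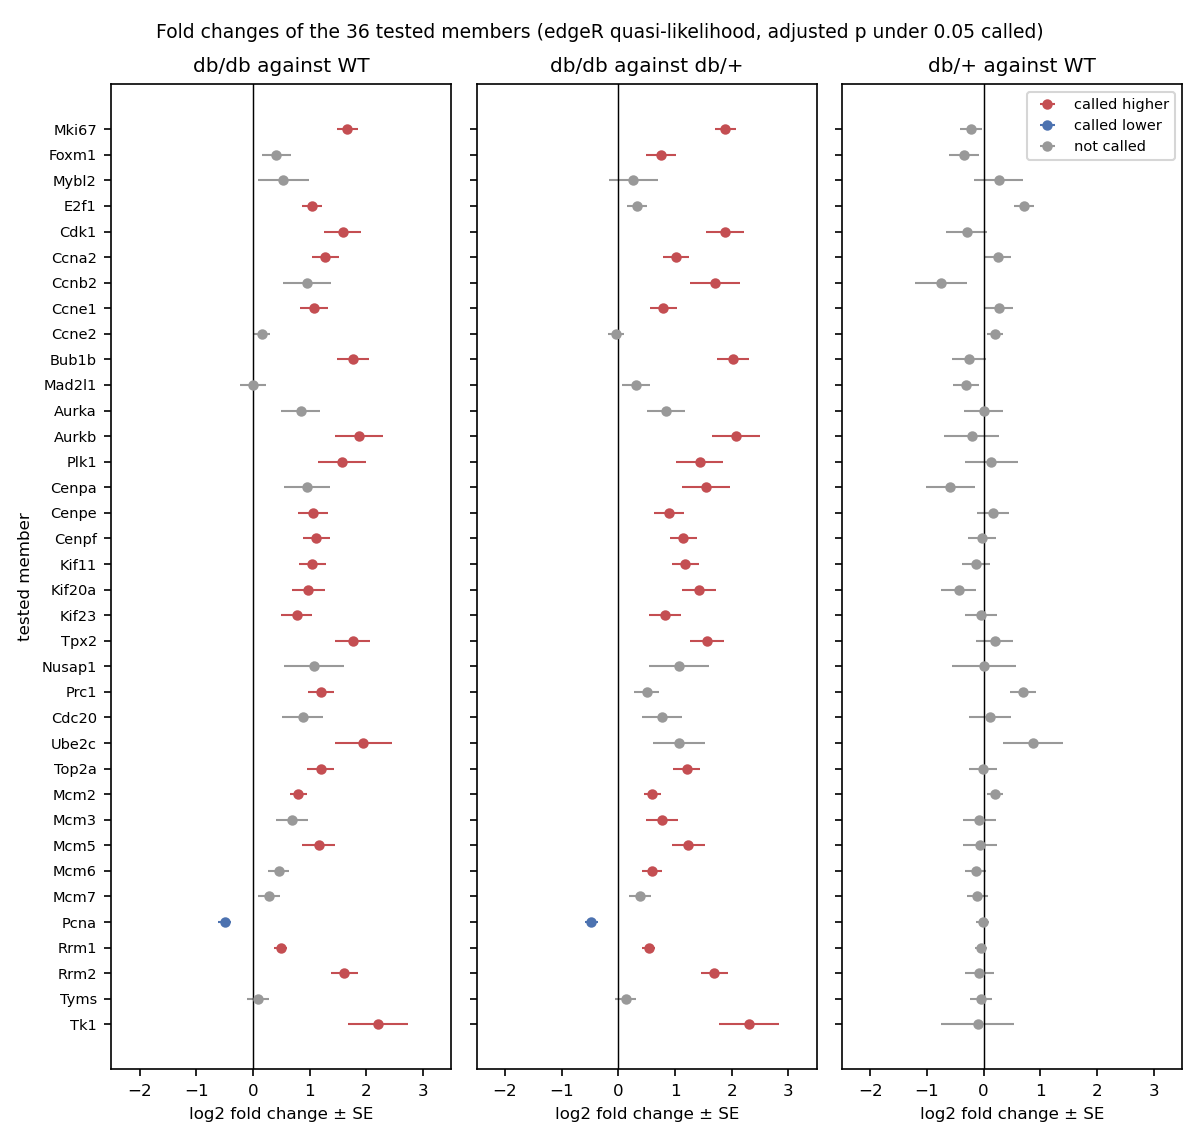
Log2 fold change ± SE of each of the 36 tested members in the 3 comparisons, with coloured points past an adjusted p of 0.05 by edgeR. Points of db/db against WT and against db/+ lie mostly to the right of 0, with Pcna to the left, while those of db/+ against WT lie around 0 and none is coloured.

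No member was called in db/+ against WT by edgeR's test, where 1.43% of all tested genes were called, 0.606% as higher and 0.82% as lower. In 2 members the db/+ libraries lay wholly above WT and in 2 wholly below, which held for 12.1% and 10.4% of all tested genes. The median log2 fold change of the 36 was -0.05, against 0.016 for all tested genes. At an unadjusted p under 0.05 there were 2 members, E2f1 and Prc1, or 5.56%, against 15.6% of all tested genes. E2f1 stood at 5.72 ± 0.76 CPM in WT and 9.36 ± 1.39 in db/+, without overlap between libraries, a log2 difference of 0.71 ± 0.17 (adjusted p = 0.0642). DESeq2 called E2f1 in this comparison (0.70, adjusted p = 0.0301), as did edgeR with no low-count filter (0.69, adjusted p = 0.0135), and limma-voom called no member. Prc1 stood at 4.52, 3.61 and 3.15 CPM in WT and 7.11, 6.41 and 4.89 in db/+, also without overlap, a log2 difference of 0.70 ± 0.23 (adjusted p = 0.158). For Mki67 the difference was -0.23 ± 0.19, with a 95% interval of -0.70 to 0.24, and for Top2a -0.01 ± 0.24, with an interval of -0.61 to 0.59. The low counts leave room for moderate differences in these genes.

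Libraries of 1 group also differed from each other over the whole set. Summed over the 40 members, the level was 209.9, 188 and 171 CPM in WT 1, WT 2 and WT 3, 206, 193 and 177 in the db/+ libraries and 342, 351 and 285 in the db/db libraries. The lowest db/db sum was above the highest of the other 6. WT 1 was the highest WT library in 25 of 40 members and WT 3 the lowest in 27. Among db/db libraries, db/db 2 was the highest in 24 and db/db 3 the lowest in 30. Relative to the mean of the 6 WT and db/+ libraries, the median ratio over members was 2.21 in db/db 1, 2.29 in db/db 2 and 1.72 in db/db 3. The members above all 6 of those libraries numbered 36, 37 and 29 of 40, against 33.4%, 30.2% and 31.5% of all tested genes. Bub1b, Cdk1, Tpx2 and Cenpf each peaked in db/db 2, whereas Rrm2, Mcm2, Aurkb and Tk1 peaked in db/db 1.

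Per kilobase of the longest annotated transcript, Pcna was the most abundant member in WT and in db/db, at 19.4 ± 0.878 and 13.7 ± 1.81 CPM per kilobase. Rrm1 came second in both groups, at 5.33 ± 0.406 and 7.48 ± 0.233. Mki67 went from 1.4 ± 0.262 CPM per kilobase and rank 11 in WT to 4.47 ± 0.524 and rank 4 in db/db, and Ccne2 from rank 3 to rank 8. In db/db, Top2a at 4.43 ± 0.519, E2f1 at 4.26 ± 0.562 and Mki67 stood within their spread of each other on this scale. The lowest in WT were Birc5, at 0.133 ± 0.0106, and Ccnb1, at 0.15 ± 0.0943, and the lowest in db/db were Ttk, at 0.328 ± 0.0866, and Bub1, at 0.333 ± 0.0257. The transcript used here may not be the form made in islets.

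Other genes of the same processes, listed by textbook role, moved in the same direction as the members in most calls. Their counts stand beside 21.8% of all tested genes that rose and 19.9% that fell against WT, and 20.6% and 19.7% against db/+. Of 38 tested replication genes, 14 rose and 3 fell against WT (median log2 fold change 0.42), and 15 rose and 3 fell against db/+ (0.43). The flap endonuclease Fen1 rose by 0.92 ± 0.14 against WT (adjusted p = 0.000122). Orc6, a subunit of the origin recognition complex, fell from 18.6 ± 1.12 CPM in WT to 8.16 ± 1.15 in db/db (-1.18 ± 0.15, adjusted p = 4.19e-05), and Pold1, the catalytic subunit of DNA polymerase delta, fell too (-0.54 ± 0.16, adjusted p = 0.0154). Of 54 tested mitosis genes outside the 40, 27 rose and 2 fell against WT (median 0.82), and 32 rose and 2 fell against db/+ (0.98). Dlgap5, a spindle protein, rose from 0.874 ± 0.252 to 5.27 ± 0.512 CPM (2.56 ± 0.36, adjusted p = 7.43e-05), and Spc24, of the outer kinetochore, rose by 1.89 ± 0.31 (adjusted p = 0.000263). Its partner Spc25 fell from 279 ± 57.1 to 148 ± 33.2 CPM (-0.92 ± 0.21, adjusted p = 0.00945). Spc25 stood far above every member in level, and G6pc2, an islet gene with 306332 counts over the 9 libraries, lies 4859 bases from it. The condensin subunit Ncapd3 fell as well (-0.28 ± 0.10, adjusted p = 0.0336). No gene of either list was called in db/+ against WT.

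Markers of several other pancreatic cell types were also higher in db/db, to be read beside the 21.8% of all tested genes that rose against WT and the 20.6% against db/+. The 10 endocrine markers summed to 110900 to 141100 CPM in WT, and this range overlapped with 129800 to 144600 CPM in db/+ and 115800 to 152200 CPM in db/db. Of the 10, 2 were called higher and 2 lower in each db/db comparison. Their log2 fold changes ran from -0.81 to 2.17 against WT and from -1.03 to 1.98 against db/+. Acinar markers, 23 in all, summed to 13228, 7420 and 6999 CPM in WT, to 16210, 20375 and 37009 in db/+ and to 54144, 19502 and 20254 in db/db. They were high in db/db against WT, with 14 of 23 called higher, but overlapped with db/+, with 1 of 23. Duct markers (8 of 11 tested higher in both comparisons) summed to 326 to 331 CPM in WT, 345 to 378 in db/+ and 1302, 753 and 839 in db/db. Stellate, fibroblast and pericyte markers (11 of 15 higher against WT and 10 of 15 against db/+) summed to 262 to 383 CPM in WT, 256 to 392 in db/+ and 2181, 824 and 1409 in db/db. Endothelial markers (8 of 13 in both) summed to 630.4 to 689, 614 to 678 and 731 to 992 CPM, and macrophage markers (4 of 17 against WT, near the share of all genes, and 7 of 17 against db/+) to 124 to 163, 125 to 155 and 205 to 320 CPM, in WT, db/+ and db/db. Lymphocyte markers summed to 7.52 to 31.9, 3.18 to 45.6 and 3.72 to 74 CPM with overlapping groups, and the T cell genes Cd3e, Cd3d and Cd3g had 11, 9 and 16 counts in all 9 libraries. Erythroid markers summed to 17.9 to 122, 22.7 to 36.3 and 68.5 to 163 CPM. No marker was at 0 in every library, and every cell type list but the endocrine one was highest in db/db 1. The summed member level was highest in db/db 2, at 351 CPM, but close to it in db/db 1, at 342 CPM, with 285 CPM in db/db 3. The part of these cells in the rise of the S phase and mitosis genes was not tested.

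**Figure D5:**
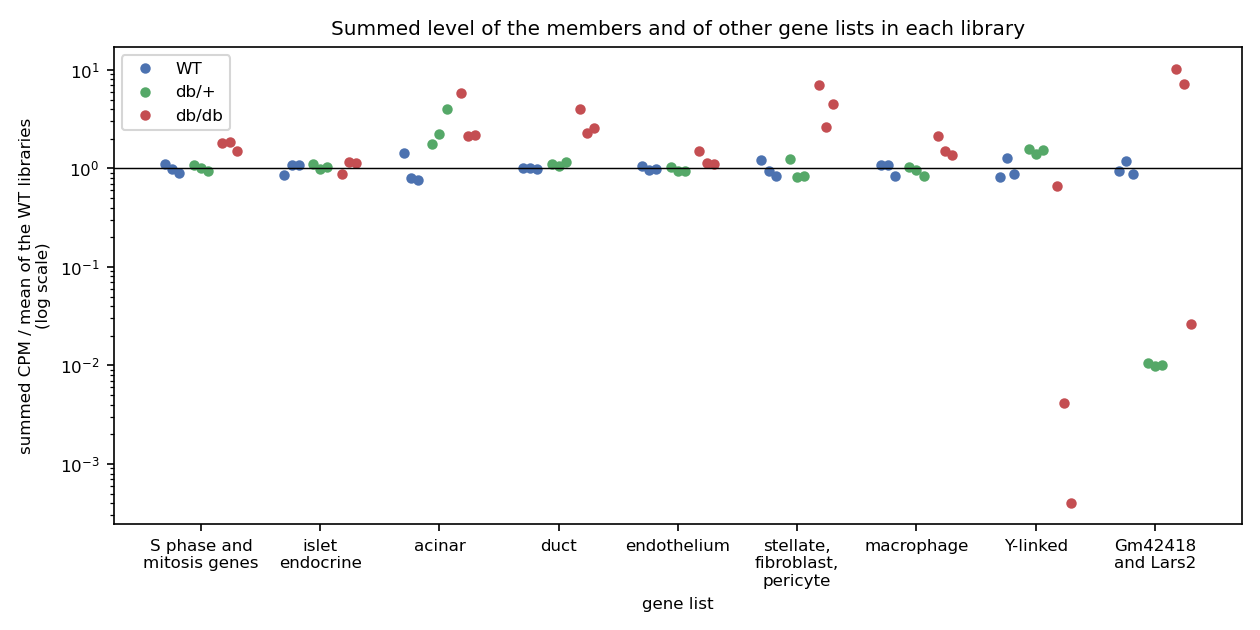
Summed CPM of the S phase and mitosis genes and of marker lists in each library, divided by the mean of the WT libraries, on a log axis. The db/db points of the members lie above the other 6, as do those of the duct, endothelial, stellate and macrophage lists, while the endocrine list overlaps between groups and the Y-linked and Gm42418 and Lars2 lists split the libraries in other ways.

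The number of members called depended on which libraries entered. Leaving out WT 1, WT 3 and db/db 1, the libraries with both Xist and Y-linked counts, left WT 2 as the only WT library. In that run both db/db libraries held Xist, and WT 2 and all db/+ libraries held Y-linked counts. Genotype and these sex-linked counts cannot be told apart there, so no count of members called is given for it. Without db/db 1 and db/db 2, the libraries high in Gm42418 and Lars2, 10 rose against WT and 7 against db/+, with a single db/db library assumed to vary like the other groups. With the acinar level as a covariate 8 rose against WT, and with the first letter of the sample title, which is the same for all db/db libraries and WT 3, 9 rose against db/+. Scaled by library totals alone, which moved the median of all genes to -0.217 against WT and -0.215 against db/+, 20 and 16 members rose, while calls over all genes went from 3670 higher and 3348 lower to 2176 and 5317 against WT, and from 3459 and 3314 to 2011 and 5265 against db/+. Mki67, Cdk1 and Bub1b were called higher in both comparisons under every alternative run, as were E2f1, Tpx2 and Rrm2 against WT.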

How the data were processed

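Islet RNA was prepared with Trizol and Ribo-Zero Gold and sequenced on an Illumina HiSeq, per the labels' protocols. Alignment to mm10 used TopHat2 2.0.14 after bcl2fastq 2.20.0.422, per the submitters' processing notes. How reads were counted (program, annotation, strand) is not given in the sources used here; overlapping genes and pseudogenes can therefore share reads. The deposited table holds read counts per gene symbol, which the authors did not normalise; 1 column matches no sample and was not used.

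The 40 members, the role groups and all other lists were chosen with earlier results of these data known. Genes were kept by filterByExpr (16826 of 52459 symbols, 32.1%), scaled by TMM and fitted with 1 term per group over all 9 libraries in edgeR 4.0.16 (R 4.3.3, robust, 6 residual degrees of freedom and a biological coefficient of variation of 0.129). Groups were compared by the two-sided quasi-likelihood F-test with p adjusted by Benjamini-Hochberg over every tested gene, threshold 0.05. SE came from the fold change and F. The 95% intervals used this SE with t on the 6 residual degrees of freedom, which is not the F-test's own setting, so an interval need not match its p-value. The test was tried on simulated counts first. CPM is on TMM-normalised library sizes. Levels in every library are given for Mki67, Top2a, Cdk1, Ccnb1, Foxm1, E2f1, Mcm2, Pcna, Rrm2, the member of each role group with the smallest adjusted p against WT, and members that fell; from the other replication and mitosis lists, the 2 higher and 2 lower genes with the smallest adjusted p against WT are named, except 1 that is not reported here. Positions and promoters are from RefSeq GRCm38.p6, found for 40 and 34 members. Transcript lengths come from an annotation of another assembly and were used for lengths only. Alternatives included DESeq2 1.42.0, limma-voom (limma 3.58.1), other scalings, filters and covariates, and each library left out. Leaving out the libraries with both Xist and Y-linked counts, leaving out those high in Gm42418 and Lars2, and summing Pcna with Pcna-ps2 were chosen after seeing the data. Figures were drawn with matplotlib 3.10.9.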

Additional observations from a re-analysis of the deposited data

How the results depend on the processing

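No paired analysis was possible because the labels give no replicate numbers that tie samples of different groups. Members called higher against WT (22) went to 8 with the acinar level as a covariate and 10 without the db/db libraries high in Gm42418 and Lars2, and to 20 to 26 with each library left out in turn. Members called lower against WT (1, Pcna) went to 0 with the Y-linked level as a covariate. Members called higher against db/+ (24) went to 9 with the title letter as a covariate, 7 without the db/db libraries high in Gm42418 and Lars2, and 18 to 28 with each library left out. Members called lower against db/+ (1) went to 0 with the title letter and 0 with the Y-linked level. No member was called in db/+ against WT except E2f1, with no low-count filter (1) and with DESeq2 (1). The run without the libraries holding both Xist and Y-linked counts, which left WT 2 as the only WT library, is set aside here. Other settings left the members called higher at 18 to 25 against WT and 16 to 25 against db/+. No called value changed sign under the alternatives run. The acinar mean log2 CPM was 8.29 to 9.58 in db/db and 6.79 to 8.99 elsewhere, and Y-linked counts were near 0 in 2 db/db libraries, so these covariates partly follow genotype, and all db/db libraries share a title letter with WT 3.

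Over all tested genes, calls higher against WT (3670) went to 2176 with library totals, 2173 with the title letter, 1941 with the acinar level and 2343 without the libraries holding both Xist and Y-linked counts. Calls lower against WT (3348) went to 5317 with library totals, 1561 with the acinar level, 1999 with the Y-linked level and 2106 without the libraries holding both. Against db/+, calls higher (3459) went to 2011 with library totals and 1007 with the title letter. Calls lower (3314) went to 5265 with library totals, 1026 with the title letter, 1916 with the Y-linked level and 2075 without the libraries high in Gm42418 and Lars2. In db/+ against WT, calls higher (102) went to 244 with no low-count filter, 230 with DESeq2, 67 with limma-voom, 32 with non-robust dispersion, 34 with the title letter, 167 with the Y-linked level, 54 without the libraries holding both, and 23 to 178 with each library left out. Calls lower (138) went to 524, 411, 52, 14, 11, 232 and 43 in the same order, to 14 with the acinar level, and to 0 to 252 with each library left out. The run without the libraries holding both left WT 2 as the only WT library. The run without those high in Gm42418 and Lars2 left db/db 3 as the only db/db library. The cause of these changes was not tested.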
